A study of Mus musculus with 2 samples.

Results

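Bglap, Bglap2, Ibsp, Dmp1, Spp1 and Mgp, 6 genes of mineralised bone matrix, were followed across the cells of mouse breast tumours. They are 6 of the 55357 gene rows of both matrices and were matched by symbol. The set was chosen from measured values of these same data, so every value here is a description. The tumours were grown in BALB/c mice from 4T1 cells, an established mouse line of triple-negative breast cancer. The AptCD4-LNT library came from mice given AptCD4-LNT in 3 doses of 5000000, 4000000 and 3000000 cells, 3 days apart. The Untreated library came from tumour-bearing mice given PBS. Day 9 tumours were used, 3 mixed per library, so each condition is 1 pooled sample with no replicate. No test was possible, and every 95% interval below covers counting error only, not the variation between mice, tumours or libraries. The labels give no other allele or agent and no age, and do not say what the letters of AptCD4-LNT stand for.

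Bone matrix is a collagen scaffold on which calcium phosphate crystals are laid down. The SIBLING phosphoproteins, a family of secreted acidic proteins encoded side by side, bind calcium and collagen. Spp1 (osteopontin) holds crystal growth in check and binds integrins and CD44. Ibsp (bone sialoprotein) seeds crystals, and Dmp1 marks osteocytes and helps to regulate phosphate. The Gla proteins carry glutamates that a vitamin K-dependent enzyme carboxylates. Bglap and Bglap2 encode osteocalcin, the classical product of mature osteoblasts, and Mgp (matrix Gla protein) keeps soft tissue from calcifying. Osteopontin is also made by macrophages and by many carcinomas, and bone sialoprotein is known from breast cancers that spread to bone.

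The genes lie in 3 places of the mouse genome. In the RefSeq annotation of build GRCm38.p6, Dspp, Dmp1, Ibsp, Mepe and Spp1 are the 5 protein-coding genes of a 270-kilobase stretch of chromosome 5. Bglap3, Bglap2 and Bglap follow each other within 15.9 kilobases of chromosome 3, and Mgp is on chromosome 6. The deposited matrices use build GRCm39, so no coordinate of the reference was carried over to them. The promoters of 4 of the 6 genes are in the RefSeq table used, as windows of 250 bases before and 50 bases after the start site. The windows of 3 genes are shown because each gene was 2-fold lower in AptCD4-LNT in at least 1 of the 3 main cell classes: Bglap (chr3:88384417-88384716, minus strand), Spp1 (the first of 2 entries, chr5:104434861-104435160, plus strand) and Ibsp (chr5:104299037-104299336, plus strand). Capitals mark the Runx core ACCACA, the letters recognised by the osteoblast factor Runx2, and the TATA box TATAAA or its reverse complement TTTATA.
Bglap: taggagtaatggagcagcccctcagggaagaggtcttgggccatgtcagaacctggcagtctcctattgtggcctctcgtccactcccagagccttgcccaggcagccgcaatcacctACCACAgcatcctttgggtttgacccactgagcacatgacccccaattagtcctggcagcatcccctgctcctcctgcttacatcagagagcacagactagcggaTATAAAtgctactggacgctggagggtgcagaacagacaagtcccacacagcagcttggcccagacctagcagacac
Spp1: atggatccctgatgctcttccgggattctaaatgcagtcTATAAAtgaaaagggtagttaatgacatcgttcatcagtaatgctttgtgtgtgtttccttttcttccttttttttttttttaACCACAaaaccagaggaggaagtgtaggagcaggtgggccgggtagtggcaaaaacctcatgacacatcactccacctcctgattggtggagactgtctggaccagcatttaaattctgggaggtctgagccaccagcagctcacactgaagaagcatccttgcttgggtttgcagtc
Ibsp: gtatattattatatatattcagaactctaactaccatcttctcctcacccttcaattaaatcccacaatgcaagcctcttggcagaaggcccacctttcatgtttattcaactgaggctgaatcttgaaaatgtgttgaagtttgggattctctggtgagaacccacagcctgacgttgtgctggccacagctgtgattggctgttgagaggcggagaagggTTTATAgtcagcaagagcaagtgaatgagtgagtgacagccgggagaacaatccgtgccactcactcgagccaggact
The Bglap window held ACCACA starting 132 bases before the start site and TATAAA starting 27 bases before it. The Spp1 window held ACCACA starting 128 bases before the start site, and its TATAAA lay far upstream, at 211 bases. The Ibsp window had no ACCACA and held the TATA letters on the other strand, starting 28 bases before the start site. Of the 2 Dmp1 windows, not shown, 1 held ACCACA, starting 164 bases before its start site. An inverted TATA element is known from the bone sialoprotein promoter of the rat. ACCACA or its reverse complement TGTGGT was found in 16.9% and TATAAA or TTTATA in 14.2% of 27025 promoter windows of the same length, counting both strands and 1 window a gene. Neither motif overlaps the other in these windows. A match is a description of letters and not a measured site.

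There were 98968100 UMIs on 8931 barcodes in AptCD4-LNT and 131295224 UMIs on 20040 barcodes in Untreated. A UMI is a tag that marks 1 captured RNA molecule. Filters left 8215 cells in AptCD4-LNT, at a median depth of 8216 UMIs, and 16788 in Untreated, at 4094 UMIs, and 42 barcode sequences occurred in both libraries. Cells were clustered without the 6 genes and named from marker genes as epithelial-like (3629 AptCD4-LNT and 8885 Untreated cells), macrophage-like (817 and 2734) and fibroblast-like (733 and 385). The labels call all cells tumour cells, but the 10 macrophage markers summed to 22019 CPM (UMIs per 1000000 UMIs of a class) in AptCD4-LNT and 17972 CPM in Untreated macrophage-like cells. The 10 epithelial markers summed to 5255 and 5299 CPM in AptCD4-LNT and Untreated epithelial-like cells, and the 9 fibroblast markers to 89742 and 80370 CPM in fibroblast-like cells. No cluster was osteoblast-like or chondrocyte-like. Of the 9 osteoblast markers, Sp7, Dlx5 and Sost had no UMI in epithelial-like cells of either library, and Runx2 was the 1 that reached 20 CPM there. A cluster of 17 AptCD4-LNT cells and no Untreated cell was osteoclast-like.

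Bglap and Bglap2 separated the libraries, and Spp1 separated them in macrophage-like and fibroblast-like cells. Ibsp separated them in epithelial-like cells and Mgp in fibroblast-like cells. Over all kept cells Spp1 stood at 10734 CPM in AptCD4-LNT and 12626 CPM in Untreated, and Ibsp at 54.4 and 113.6 CPM. Dmp1 stood at 41.0 CPM in AptCD4-LNT and 37.3 CPM in Untreated, and Mgp at 564.7 and 563.7 CPM. Bglap had 0 UMIs in AptCD4-LNT and 3589 in Untreated, and Bglap2 had 6 and 2452 UMIs. Thus 3 of the 6 genes, Ibsp, Bglap and Bglap2, were at least 2-fold lower in AptCD4-LNT over the library, and none was 2-fold higher. Over the library, 2.59% of the 18247 genes with 30 or more UMIs were at least 2-fold lower and 7.03% at least 2-fold higher. The genes were chosen on these contrasts, so the share is given beside the count and nothing is read from it. Within classes the same shares were 2.03% lower and 2.93% higher of 15894 genes in epithelial-like cells, 3.73% and 6.63% of 11480 genes in macrophage-like cells, and 4.05% and 3.93% of 11668 genes in fibroblast-like cells.

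**Figure D1:**
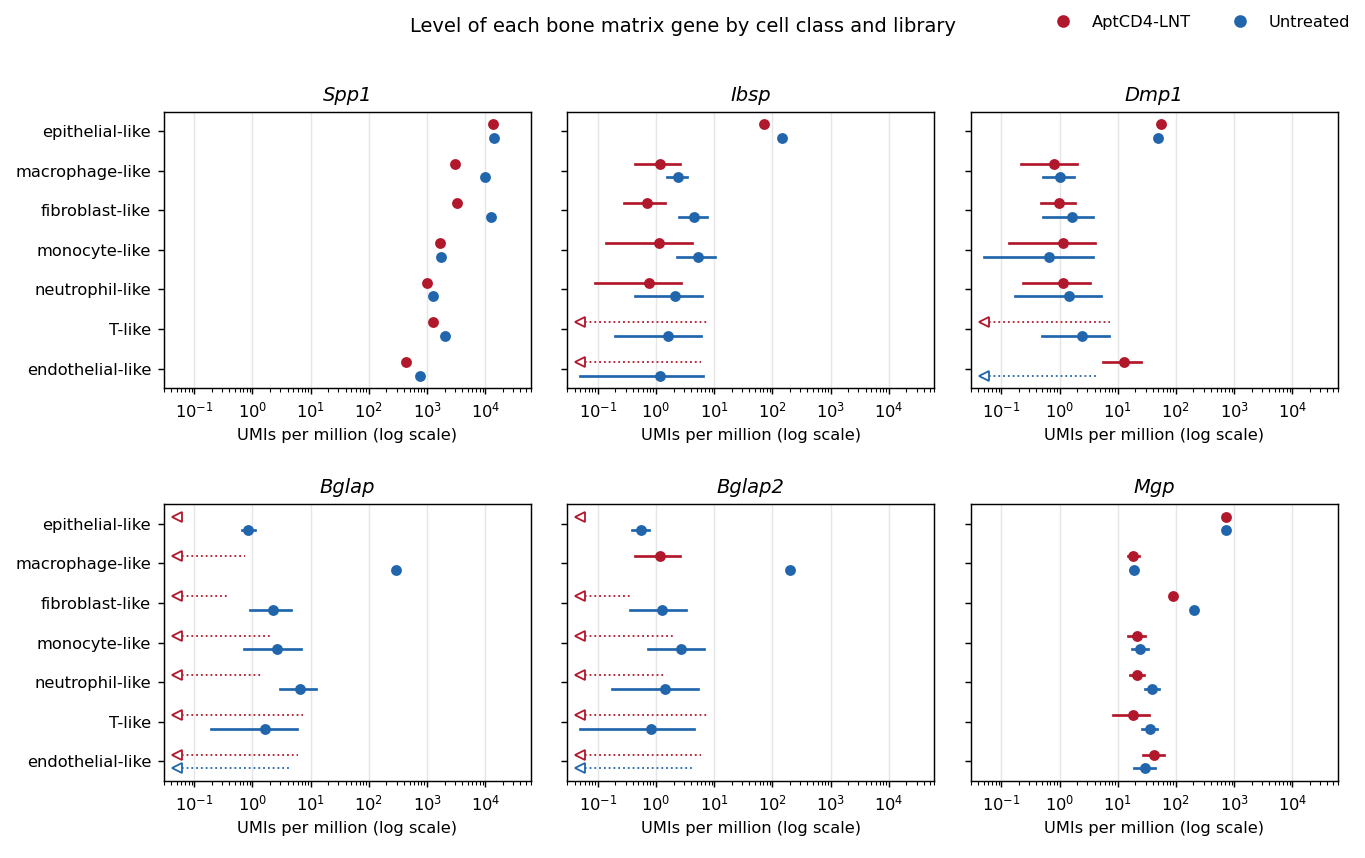
Level of each of the 6 genes in CPM (log scale) by cell class, for the AptCD4-LNT library (red, above) and the Untreated library (blue, below); lines are exact 95% Poisson intervals of the count. Open triangles stand at the left edge for classes with 0 UMIs and the dotted line runs to the upper limit; Bglap is at 0 in every AptCD4-LNT class drawn and at 292 CPM in Untreated macrophage-like cells.

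Spp1, or osteopontin, was carried by epithelial-like cells, which held 94.03% of its UMIs in AptCD4-LNT and 85.5% in Untreated. Its level there was 13493 CPM (13465 to 13521) in AptCD4-LNT and 14240 CPM (14212 to 14268) in Untreated, a log2 ratio of -0.08. This difference had no stable direction, since it was 0.05 without cluster 0 and 0.0039 when each cell had equal weight. Almost every epithelial-like cell carried the transcript, with a UMI in 98.4% of 3496 AptCD4-LNT cells and in 98.7% of 8152 Untreated cells once each was thinned to 2000 UMIs. The median cell stood at 11632 CPM in AptCD4-LNT and 11780 CPM in Untreated, and the top 10% of cells held 30.3% and 35.7% of the UMIs.

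Macrophage-like cells had less Spp1 in AptCD4-LNT, at 2984 CPM (2937 to 3032), against 9696 CPM (9640 to 9752) in Untreated, a 3.25-fold lower level and a log2 ratio of -1.70 (-1.72 to -1.68). Macrophages are a known source of osteopontin in tumours. The median over genes was itself shifted by 0.21 in this class, and relative to it the Spp1 ratio was -1.91. Different clusters filled the class: cluster 15, led by Cd72 and Cx3cr1, held 53.1% of the AptCD4-LNT but 3.77% of the Untreated cells, and cluster 6, led by Clec4n and Arg1 beside the osteocalcin genes, held 3.55% and 58.2%. With the same weight of clusters in both libraries the ratio was -1.25. Spp1 was lower in AptCD4-LNT in all 4 clusters. It stood at 3187 CPM in AptCD4-LNT and 8766 CPM in Untreated in cluster 15, at 3307 and 9107 CPM in cluster 6, and at 6591 and 13043 CPM in cluster 11, led by Mmp12 and Ccl24. In cluster 16, led by Cd163 and Lyve1, it stood at 1288 CPM in AptCD4-LNT and 2703 CPM in Untreated. Clusters 6 and 11 rest on 29 and 26 AptCD4-LNT cells. After thinning to 2000 UMIs, 85.2% (82.2 to 87.9%) of AptCD4-LNT and 95.2% (94.2 to 96.0%) of Untreated macrophage-like cells carried a UMI.

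Fibroblast-like cells as a class also had less Spp1 in AptCD4-LNT, at 3324 CPM in AptCD4-LNT and 12362 CPM in Untreated, a 3.72-fold lower level and a log2 ratio of -1.89 (-1.92 to -1.87). Nearly all of it came from cluster 17, led by Tagln, Acta2 and Lrrc15, which are genes of contractile tumour fibroblasts. That cluster held 90.1% of the class's Spp1 UMIs in AptCD4-LNT and 97.8% in Untreated. It was 21.0% of the class in AptCD4-LNT, 154 cells, and 49.4% in Untreated, 190 cells. Within cluster 17 Spp1 stood at 10645 CPM in AptCD4-LNT and 22138 CPM in Untreated, a log2 ratio of -1.06 (-1.08 to -1.03), and the median cell at 3900 and 13299 CPM. In cluster 12, led by Dpt and Sfrp2, it stood at 458 CPM in AptCD4-LNT and 608 CPM in Untreated, a log2 ratio of -0.41. With the same cluster weights in both libraries the class ratio was -1.01. Few cells carried much of the Spp1 of the class. The 7 highest of 733 AptCD4-LNT cells held 35.7% of its UMIs, and the 4 highest of 385 Untreated cells held 19.0%. The top 10% of cells held 87.2% in AptCD4-LNT and 64.9% in Untreated. The 10 macrophage markers summed to 158 and 137 CPM in AptCD4-LNT and Untreated fibroblast-like cells.

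**Figure D2:**
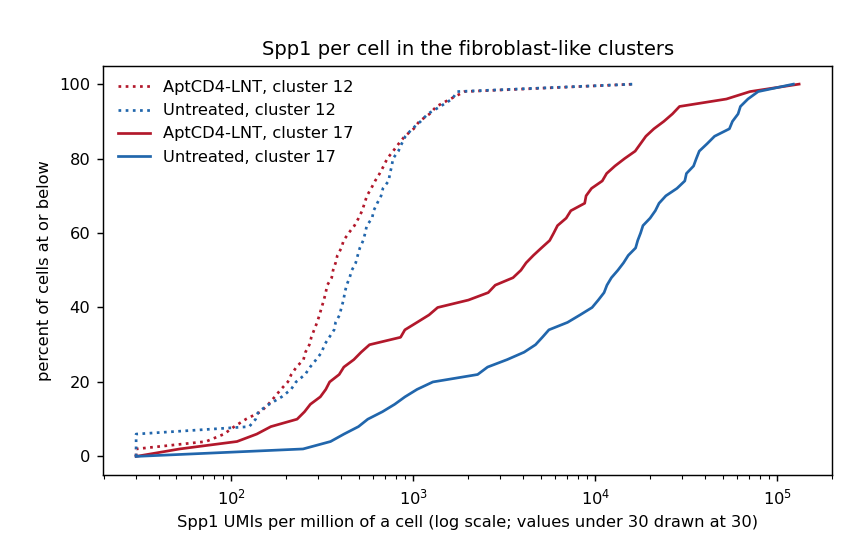
Percent of cells at or below a given Spp1 level, in UMIs per 1000000 of the cell (log scale), for fibroblast-like clusters 12 (dotted) and 17 (solid) in the AptCD4-LNT (red) and Untreated (blue) libraries. Cluster 12 curves lie close together, and the cluster 17 curves are apart, with medians of 3900 in AptCD4-LNT and 13299 in Untreated.

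Cells outside the epithelial-like, macrophage-like and fibroblast-like classes show the Spp1 level found elsewhere, and the part of free RNA in it was not tested. Neutrophil-like cells stood at 997 CPM in AptCD4-LNT and 1277 CPM in Untreated, and T-like cells at 1276 and 2039 CPM. A thinned UMI was found in 63.3% of 281 neutrophil-like cells of AptCD4-LNT and 69.0% of 113 of Untreated. Their median depth was 1409 UMIs in AptCD4-LNT and 910.5 in Untreated. Against the tumour keratins Krt8 and Krt18, Spp1 gave 4.12 UMIs per keratin UMI in AptCD4-LNT and 4.85 in Untreated epithelial-like cells. The same ratio was 10.996 and 9.70 in neutrophil-like cells, 48.6 and 131 in macrophage-like cells, and 62.4 and 149 in fibroblast-like cells. Cluster 12 was below the neutrophil-like level in both libraries, and cluster 16 was near it in AptCD4-LNT. Endothelial-like cells, 43 in AptCD4-LNT and 123 in Untreated, stood at 429 and 759 CPM, so the level differed between these other classes. Pericyte-like cells stood at 293 CPM in AptCD4-LNT and 2181 CPM in Untreated. Their 46 and 41 cells differed in epithelial markers too, at 81.6 and 1112 CPM.

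Ibsp, bone sialoprotein, was a gene of the epithelial-like cells. They held 99.6% of its UMIs in AptCD4-LNT and 99.1% in Untreated. The level was 72.5 CPM (70.4 to 74.5) in AptCD4-LNT and 148 CPM (146 to 151) in Untreated, a 2.05-fold lower level and a log2 ratio of -1.03 (-1.08 to -0.98). Among Spp1, Ibsp, Dmp1 and Mgp it was the only gene to pass a 2-fold difference in this class. In macrophage-like and fibroblast-like cells it had 6 and 7 UMIs in AptCD4-LNT and 28 and 14 in Untreated, under 5 CPM. After thinning to 2000 UMIs a UMI was found in 7.89% (7.02 to 8.84%) of epithelial-like cells in AptCD4-LNT and 15.2% (14.45 to 16.02%) in Untreated. Without thinning the shares were 21.4% and 23.9%, with a median depth of 17108 UMIs in AptCD4-LNT and 6588 in Untreated. In neutrophil-like cells a thinned UMI was seen in 0.356% of AptCD4-LNT and none of the Untreated cells, of 113, which allows a share of up to 2.65%.

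The Ibsp level varied between tumour clusters. Cluster 1, led by Ibsp itself, Slc4a4 and Nr2f1, had 123 CPM in AptCD4-LNT and 352 CPM in Untreated. Cluster 5, led by Lgals7, Bdnf and Lif, had 84.3 and 296 CPM. Cluster 14, led by Krt14 and Mmp13, had 143.8 CPM in AptCD4-LNT and 187 CPM in Untreated. In the cycling clusters 9 and 7 the levels were 33.1 and 51.8 CPM in AptCD4-LNT, against 133.7 and 84.9 CPM in Untreated. Cluster 2, led by hypoxia genes such as Ndrg1 and Car9, had 44.8 CPM in AptCD4-LNT and 44.1 CPM in Untreated, and the interferon-gene cluster 19 had 46.7 and 47.5 CPM. Ibsp was therefore lower in AptCD4-LNT in 6 of 8 clusters, by 0.38 to 2.01 on the log2 scale, with intervals that exclude 0, and in clusters 2 and 19 the intervals include 0. Cluster 19 had only 29 AptCD4-LNT cells. Leaving out cluster 1, which held 9.10% of the class's Ibsp UMIs in AptCD4-LNT and 37.7% in Untreated, gave a log2 ratio of -0.66, and the same cluster weights in both libraries gave -1.25.

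**Figure D3:**
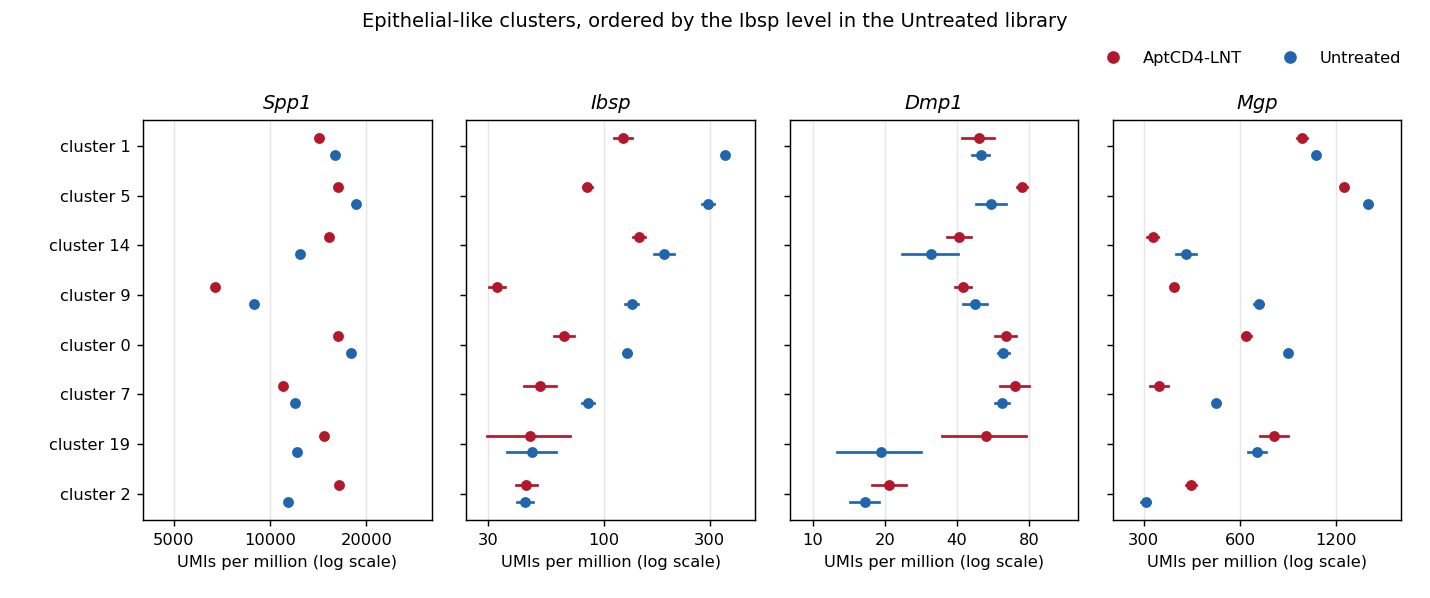
Level of Spp1, Ibsp, Dmp1 and Mgp in CPM (log scales that differ between panels) in each of the 8 epithelial-like clusters, for the AptCD4-LNT (red, above) and Untreated (blue, below) libraries; lines are exact 95% Poisson intervals. Ibsp is lower in AptCD4-LNT in 6 of 8 clusters and close to level in clusters 19 and 2, where cluster 19 has 29 AptCD4-LNT cells.

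Ibsp UMIs were more concentrated in the highest cells than those of Dmp1 or Mgp. The 10% of epithelial-like cells highest in Ibsp held 86.8% of its UMIs in AptCD4-LNT and 82.5% in Untreated, and the most in a single cell was 89 and 57 UMIs. For Dmp1 the top 10% held 58.9% in AptCD4-LNT and 73.7% in Untreated, and for Mgp 51.9% and 58.5%. These shares use unthinned counts, so they depend on depth, which was larger in AptCD4-LNT, and on how low a gene's counts are. Unthinned, a Dmp1 UMI was found in 37.9% of AptCD4-LNT and 20.1% of Untreated epithelial-like cells. Among cells thinned to 5000 UMIs, Dmp1 was found in 28.9% of Ibsp-positive and 17.5% of Ibsp-negative AptCD4-LNT cells, and in 25.6% and 13.7% of such Untreated cells. Joint detection was 1.52 times in AptCD4-LNT and 1.57 times in Untreated what independent detection gives. For Ibsp with Mgp it was 1.26 and 1.25 times, and for Dmp1 with Mgp 1.26 and 1.35 times.

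**Figure D4:**
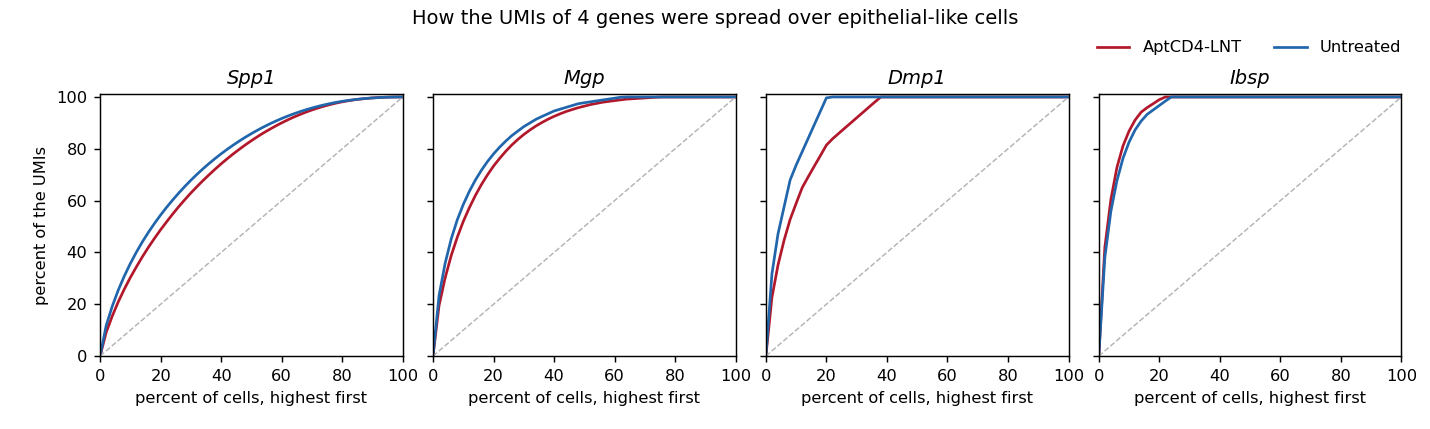
Percent of a gene's UMIs held by a given percent of epithelial-like cells, ranked from the highest count down, for Spp1, Mgp, Dmp1 and Ibsp in the AptCD4-LNT (red) and Untreated (blue) libraries; the dashed line is an even spread. The curves use unthinned counts and so depend on depth, which is larger in AptCD4-LNT; the top 10% of cells held 86.8% of Ibsp UMIs in AptCD4-LNT and 82.5% in Untreated.

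Dmp1, the osteocyte phosphoprotein, was also an epithelial-like transcript, with 99.03% of its AptCD4-LNT and 98.9% of its Untreated UMIs in that class. It stood at 54.3 CPM (52.5 to 56.1) in AptCD4-LNT and 48.7 CPM (47.0 to 50.3) in Untreated, a log2 ratio of 0.16 (0.09 to 0.23). The direction rests on cluster 5, which held 35.9% of AptCD4-LNT and 4.69% of Untreated epithelial-like cells, and without it the ratio was -0.14. In cluster 5 Dmp1 stood at 74.7 CPM in AptCD4-LNT and 55.4 CPM in Untreated, and in cluster 0, led by Tmprss6 and Ly6c1, at 63.7 and 62.5 CPM. The lowest level among the tumour clusters with at least 50 cells in each library was in the hypoxia-gene cluster 2, at 20.9 CPM in AptCD4-LNT and 16.5 CPM in Untreated. Macrophage-like and fibroblast-like cells had 4 and 10 Dmp1 UMIs in AptCD4-LNT and 12 and 5 in Untreated. After thinning, 9.21% of epithelial-like cells in AptCD4-LNT and 7.94% in Untreated carried a UMI. The related Mepe had 1 and 4 UMIs in epithelial-like cells of AptCD4-LNT and Untreated, and Dspp, the dentine gene of the same stretch, had none in either.

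Osteocalcin stood apart from the other genes, since it belonged to macrophage-like cells of the Untreated library. Bglap had 0 UMIs in AptCD4-LNT macrophage-like cells, which allows at most 0.730 CPM, and 3464 UMIs, or 292 CPM (282 to 302), in Untreated ones. Taking 3 counts of the class as the floor, this is at least 491-fold lower. Bglap2 had 6 UMIs, or 1.19 CPM (0.436 to 2.59), in AptCD4-LNT and 2365 UMIs, or 199 CPM (191 to 207), in Untreated. Macrophage-like cells held 96.5% of the Untreated Bglap UMIs and 96.5% of the Untreated Bglap2 UMIs. Over every barcode deposited, before any filter, Bglap had 1 UMI in AptCD4-LNT and 4488 in Untreated, and Bglap2 6 and 3061.

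The split between both osteocalcin genes is uncertain. In GENCODE M21 the last 300 bases of the Bglap and Bglap2 transcripts are 99.7% identical, and those of Bglap3 are 96.7% identical to Bglap. Their sum does not depend on the split, and it was 6 UMIs, or 1.19 CPM, in AptCD4-LNT and 5829 UMIs, or 491 CPM, in Untreated macrophage-like cells. That is a 413-fold lower level (190 to 1127) and a log2 ratio of -8.69 (-10.14 to -7.57). How reads that match both genes were counted is not given in the sources used here, so the sum may leave some out. Bglap3, the third copy, moved the same way, with 3 UMIs in AptCD4-LNT and 266 in Untreated over kept cells.

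The difference was present inside a macrophage-like cluster that both libraries filled. In cluster 15 Bglap had 0 UMIs in 434 AptCD4-LNT cells and 230 UMIs, or 224 CPM, in 103 Untreated cells, and Bglap2 had 5 UMIs and 123 UMIs. Bglap and Bglap2 together stood at 1.26 CPM in AptCD4-LNT and 344 CPM (309 to 382) in Untreated, a log2 ratio of -8.10 (-9.73 to -6.86). The cells of cluster 15 differed between libraries in other genes too. Without an osteocalcin UMI, 429 AptCD4-LNT cells stood at 151 CPM of Arg1 and 51 Untreated cells at 1129 CPM. Mmp12 stood at 14.1 CPM in AptCD4-LNT and 782 CPM in Untreated cells of the cluster. The part of such differences within the cluster was not tested. In cluster 6 the sum was 1 UMI in 29 AptCD4-LNT cells and 5120 UMIs, or 661 CPM, in 1592 Untreated cells. In cluster 11 it was 0 UMIs in 26 AptCD4-LNT cells and 356 UMIs, or 135 CPM, in 873 Untreated cells. Cluster 16, led by Cd163 and Lyve1, had no UMI of either gene in 328 AptCD4-LNT cells or in 166 Untreated cells. The order of the Untreated clusters was thus 6, 15, 11 and 16, and neighbours in it do not overlap in their counting intervals.

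**Figure D5:**
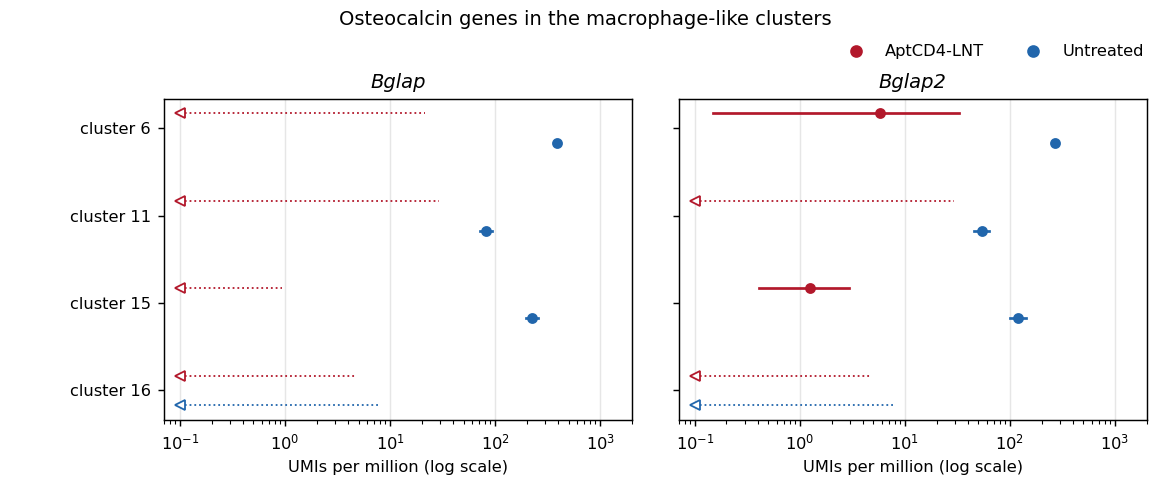
Level of Bglap and Bglap2 in CPM (log scale) in the 4 macrophage-like clusters, for the AptCD4-LNT (red, above) and Untreated (blue, below) libraries, with exact 95% Poisson intervals. Open triangles at the left edge are clusters with 0 UMIs, with a dotted line to the upper limit; cluster 16 has none in either library, and cluster 15 has 0 and 230 Bglap UMIs in AptCD4-LNT and Untreated.

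After thinning to 2000 UMIs, Bglap was seen in 0 of 636 AptCD4-LNT macrophage-like cells, which allows a share of up to 0.472%, and in 24.3% (22.5 to 26.2%) of 2154 Untreated ones. Bglap2 was found in 0.314% of such cells in AptCD4-LNT and 19.0% in Untreated. Among Untreated cells with a Bglap UMI, 47.1% also carried Bglap2, against 10.0% of those without. In Untreated epithelial-like cells Bglap was seen in 0.221% and Bglap2 in 0.0368%, in T-like cells Bglap in 0.495% of 202, and in neutrophil-like cells Bglap in 1.77% of 113. The 10% of Untreated macrophage-like cells highest in each gene held 74.0% of the Bglap and 80.9% of the Bglap2 UMIs, and the most in a single cell was 68 Bglap UMIs. In Untreated cluster 15, Spp1 stood at 10873 CPM in the 52 cells with an osteocalcin UMI and 6121 CPM in the 51 cells without, with median depths of 9774.5 and 7323 UMIs. In Untreated cluster 6 it stood at 10548 and 7411 CPM, with median depths of 4913.5 and 3590.5 UMIs. Depth moved with this split, and its part in the difference was not tested.

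Few genes were as unequal between the libraries. Among 13306 genes with 300 or more UMIs over all barcodes, 4 were at least 50-fold lower in AptCD4-LNT with 3 counts as the floor, and 2 were at least 50-fold higher. The 4 were Bglap, Bglap2, Bglap3 and Csf2ra, the alpha chain of the GM-CSF receptor, and the 2 were Serpinb2 and Reg1. This limit was set after the values were seen. Csf2ra had no UMI in AptCD4-LNT and 3020 UMIs, or 23.0 CPM, in Untreated. In macrophage-like cells it had 0 UMIs in AptCD4-LNT and 1504, or 127 CPM, in Untreated, and it was at 0 in every macrophage-like cluster of AptCD4-LNT, cluster 16 included. In neutrophil-like cells it had 0 UMIs in AptCD4-LNT and 257 in Untreated. Its partner chain Csf2rb stood at 182 CPM in AptCD4-LNT and 286 CPM in Untreated macrophage-like cells. The part of this gene in the osteocalcin difference was not tested. Both matrices list the same gene rows and the same Cell Ranger version, but the annotation behind each is not given in the sources used here. For these near-zero genes, a difference in reference or read processing, in the mice or in handling cannot be told apart from treatment.

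Mgp, the inhibitor of soft-tissue calcification, was high in epithelial-like cells and differed little there as a class, at 731 CPM (725 to 738) in AptCD4-LNT and 716 CPM (710 to 723) in Untreated, a log2 ratio of 0.03 (0.01 to 0.05). Beneath that value the clusters went apart. Mgp was lower in AptCD4-LNT in clusters 9, 7, 0, 14, 5 and 1, by 0.14 to 0.88 on the log2 scale, and higher in clusters 2 and 19, by 0.47 and 0.18. The cluster 19 value rests on 29 AptCD4-LNT cells. Cluster 5 had the highest level, 1273 CPM in AptCD4-LNT and 1512 CPM in Untreated, and it held 58.9% of the AptCD4-LNT but 10.2% of the Untreated Mgp UMIs of the class. Without cluster 5 the class ratio was -0.57, and with the same cluster weights in both libraries -0.25, so the direction rests on the make-up of the class. After thinning, 47.6% of epithelial-like cells in AptCD4-LNT and 45.95% in Untreated had an Mgp UMI.

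In fibroblast-like cells Mgp was lower in AptCD4-LNT, at 87.7 CPM (82.0 to 93.7), against 207 CPM (191 to 223) in Untreated, a log2 ratio of -1.24 (-1.38 to -1.09). It held in both clusters, at 95.2 CPM in AptCD4-LNT and 266 CPM in Untreated in cluster 12, and at 68.5 and 157 CPM in cluster 17. Epithelial markers moved the same way in this class, at 92.3 CPM in AptCD4-LNT and 176 CPM in Untreated, with 1 of 10 at 0 in each. Mgp gave 1.65 UMIs per Krt8 and Krt18 UMI in AptCD4-LNT and 2.50 in Untreated fibroblast-like cells, against 0.223 and 0.244 in epithelial-like cells, and the part of tumour RNA was not tested. Pericyte-like cells, the mural cells of small vessels and a known Mgp source, had the highest level of all classes, at 1122 CPM (1015 to 1238) in 46 AptCD4-LNT cells and 2533 CPM (2333 to 2746) in 41 Untreated cells. Macrophage-like cells had 18.6 CPM in AptCD4-LNT, near the 21.4 CPM of neutrophil-like cells, which should lack Mgp. In Untreated, macrophage-like cells had 18.8 CPM (16.4 to 21.4), below the 38.7 CPM (29.0 to 50.4) of neutrophil-like cells. The order of Mgp levels over named classes was pericyte-like, epithelial-like and fibroblast-like in both libraries, with counting intervals apart. Mast-like cells, with 13 and 7 cells, were left out of this order. Next came endothelial-like cells in AptCD4-LNT, at 41.9 CPM (27.4 to 61.4) on 43 cells, and neutrophil-like cells in Untreated, and their intervals overlap those of neighbours below.

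Across 15 sums of epithelial-like cells, 1 per cluster and library with at least 50 cells, the genes most like Ibsp by Pearson's correlation of log2(CPM + 5) were Kdsr at 0.91, Rab11a at 0.90, Adam10 at 0.88 and Gng5 at 0.87, followed by Pick1, Abhd2, Leprot and Mtarc2. For Spp1 they were Itm2c at 0.94, Ltbp3 at 0.93, Tmem59 at 0.89 and Fam114a1 at 0.87, then Cope, Slc43a2, Itgb5 and Itm2b. For Dmp1 they included Arhgap18 at 0.93, Uggt1 at 0.88 and Tmem126a at 0.87, then Ncmap, Psmb4, Ndufs4 and Copb2. For Mgp they were Nr2f1 at 0.90, Etnk1 at 0.89, Vcam1 at 0.86 and Slc4a4 at 0.85, then Mtarc2, Lbh, F13a1 and Sesn3. These come from the top 8 of 4386 genes at 50 CPM or more in some sum, and the sums share their library and its depth. Among the 4 genes themselves the correlation was 0.57 for Ibsp and Mgp, 0.52 for Spp1 and Mgp, 0.48 for Spp1 and Ibsp, 0.45 for Dmp1 and Mgp, 0.34 for Ibsp and Dmp1 and 0.19 for Spp1 and Dmp1. Runx2 correlated with them between -0.17 and 0.07.

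The other genes of the mineral pathway are given from 9 lists, over members with 20 or more UMIs in a class. Of all genes that deep, 3.72% were 2-fold higher and 2.53% 2-fold lower in AptCD4-LNT epithelial-like cells, 7.46% and 4.31% in macrophage-like cells, and 4.57% and 4.93% in fibroblast-like cells. All list values are sums over a class, and different clusters fill a class in each library. Among macrophage-like cells, cluster 15 had 434 AptCD4-LNT and 103 Untreated cells, and cluster 6 had 29 and 1592. The part of cluster make-up in the list values of any class was not tested. The osteoblast transcription factors showed no 2-fold difference in any of the 3 classes, with 6, 5 and 6 of 10 factors measured and medians of 0.03, 0.08 and -0.06 beside 0.06, 0.22 and 0.01 over all genes. Runx2, the factor that directs osteoblast fate, stood at 53.5 CPM in AptCD4-LNT and 48.7 CPM in Untreated epithelial-like cells. Runx1 stood at 304 and 266 CPM, Atf4, which supports osteocalcin transcription, at 158 and 172 CPM, and Cbfb, the partner of Runx proteins, at 71.4 and 74.7 CPM. In macrophage-like cells Runx2 stood at 17.8 CPM in AptCD4-LNT and 25.7 CPM in Untreated. Sp7 and Msx2 had no UMI in any of the 3 classes of either library, and Dlx5 had 1, in Untreated fibroblast-like cells.

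Of 10 genes of phosphate and mineral handling, 7 were measured in epithelial-like cells, with 1 of them 2-fold lower, Fam20c, the kinase of secreted phosphoproteins, at 13 UMIs in AptCD4-LNT and 44 in Untreated, and this gene was named after its values were seen. Ank, a pyrophosphate exporter, stood at 284 CPM in AptCD4-LNT and 221 CPM in Untreated, the phosphate carriers Slc20a1 at 131 and 107 CPM and Slc20a2 at 33.3 and 27.5 CPM, and Enpp1, which makes pyrophosphate, at 22.3 and 24.9 CPM. Sost and Fgf23, products of osteocytes, had no UMI there. In macrophage-like cells Fam20c had the most UMIs of the list and was lower in AptCD4-LNT, at 50.3 CPM, against 105 CPM in Untreated, a log2 ratio of -1.07 (-1.27 to -0.87), the only 2-fold difference of 5 genes measured. In fibroblast-like cells 7 were measured, with 1 of them, Fgf23, 2-fold higher, at 10.1 CPM in AptCD4-LNT and 3.22 CPM in Untreated, also named after its values were seen.

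Among the other Gla genes, Gas6, a ligand of TAM receptors, was higher in AptCD4-LNT macrophage-like cells, at 239 CPM, against 48.2 CPM in Untreated, a log2 ratio of 2.31 (2.17 to 2.46). Its level was higher still in fibroblast-like cells, at 506 CPM in AptCD4-LNT and 601 CPM in Untreated. Fibroblast markers were also higher in AptCD4-LNT macrophage-like and epithelial-like cells, by the sums given with the matrix genes, and their part in the Gas6 values of both classes was not tested. Of the 8 genes of that list measured there, 2 were 2-fold higher, Gas6 and Ggcx, and 3 were lower, Bglap, Bglap2 and Bglap3. Vkorc1, the vitamin K reductase, stood at 35.0 CPM in AptCD4-LNT and 27.3 CPM in Untreated macrophage-like cells and at 22.5 and 20.9 CPM in epithelial-like cells. Ggcx, the carboxylase itself, stood at 4.94 and 4.46 CPM in epithelial-like cells. Of the 7 genes of the list measured in epithelial-like cells 1 was 2-fold higher, Gas6, and 2 were lower, Bglap and Bglap2, which had 60 and 39 UMIs there in Untreated and none in AptCD4-LNT, and of the 5 measured in fibroblast-like cells 1, Mgp, was lower.

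Of 8 other bone and cartilage matrix genes measured in epithelial-like cells, 3 were 2-fold higher in AptCD4-LNT, Bgn, Matn4 and Tnn, and none lower, and their median was 0.92 beside 0.06 over all genes. Sparc, a collagen-binding matrix protein, stood at 199 CPM in AptCD4-LNT and 128 CPM in Untreated, Postn (periostin) at 20.9 and 10.7 CPM, Bgn (biglycan) at 7.58 and 3.13 CPM and Ogn at 1.46 and 1.15 CPM. In macrophage-like cells Sparc, Postn, Bgn and Ifitm5 were higher among the 5 measured and Matn4 was lower, on 2 UMIs in AptCD4-LNT and 19 in Untreated with a log2 interval of -5.16 to 0.04. Ifitm5 too had under 50 UMIs over both libraries, so its value is less firm than those of Sparc, Postn and Bgn. The median was 1.46, and Sparc stood at 46.7 CPM in AptCD4-LNT and 16.9 CPM in Untreated. Fibroblast markers moved with both. Their 9 genes summed to 288 CPM in AptCD4-LNT and 127 CPM in Untreated epithelial-like cells and to 411 and 104 CPM in macrophage-like cells, with none at 0, and their part in these differences was not tested. In fibroblast-like cells, the main source, Sparc stood at 12900.5 CPM in AptCD4-LNT and 11518 CPM in Untreated, Postn at 2683 and 3417 CPM and Bgn at 2828 and 2713 CPM. There Comp and Col11a1 were 2-fold lower among 9 genes and none was higher, with a median of -0.35. Matn4, Tnn, Ifitm5, Comp, Col11a1 and, in macrophage-like cells, Ggcx were named after their values were seen.

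Osteopontin receptors were close to level in epithelial-like cells, with 9 of 9 measured, none past 2-fold and a median of 0.22. Itgb1 stood at 684 CPM in AptCD4-LNT and 638 CPM in Untreated, Cd44 at 253 and 201.2 CPM, Itgb5 at 177 and 166 CPM and Itgav at 90.9 and 79.1 CPM. In macrophage-like cells 1 of 7 was 2-fold higher, Itga9, at 96.0 CPM in AptCD4-LNT and 42.8 CPM in Untreated, named after its values were seen. The median of the list there was 0.59, beside 0.22 over all genes. Itgb5 stood at 364 CPM in AptCD4-LNT and 242 CPM in Untreated macrophage-like cells, and Itgav at 126 and 81.4 CPM. Itgb1 stood at 263 and 241 CPM and Cd44 at 243 and 241 CPM. In fibroblast-like cells 1 of 7 was higher, Cd44, at 539 CPM in AptCD4-LNT and 261 CPM in Untreated, a log2 ratio of 1.05 (0.94 to 1.15), while Itgb1 stood at 614 and 982 CPM.

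Of the osteoclast genes, 8 of 10 were measured in macrophage-like cells, with 4 of them 2-fold lower in AptCD4-LNT, 1 higher and a median of -0.95. These class sums too cover clusters of unlike weight in each library, and the part of that make-up was not tested. Mmp9, a gelatinase, stood at 16.4 CPM in AptCD4-LNT and 203 CPM in Untreated, a log2 ratio of -3.63 (-3.96 to -3.31). Acp5, the tartrate-resistant phosphatase of osteoclasts, stood at 49.3 CPM in AptCD4-LNT and 149 CPM in Untreated, and the fusion gene Dcstamp and the proton pump subunit Atp6v0d2, named after their values were seen, at 4.55 and 2.77 CPM in AptCD4-LNT and 39.6 and 23.2 CPM in Untreated. Tnfrsf11a, the RANK receptor, was the higher one, at 83.6 CPM in AptCD4-LNT and 41.5 CPM in Untreated, and Nfatc1 stood at 61.8 and 41.9 CPM. Mmp9 stood at 301 CPM in AptCD4-LNT and 244 CPM in Untreated epithelial-like cells. Neutrophil markers, of cells also known for Mmp9, summed to 310 CPM in AptCD4-LNT and 579 CPM in Untreated macrophage-like cells, with none of 8 at 0, and their part in it was not tested. Calcr and Oscar had no UMI there. None of the 5 osteoclast genes measured in epithelial-like cells and none of the 4 in fibroblast-like cells differed 2-fold.

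Among 5 osteoclast regulators, Csf1 stood at 79.3 CPM in AptCD4-LNT and 54.6 CPM in Untreated epithelial-like cells and Pthlh, the parathyroid hormone-related protein of bone metastasis, at 66.5 and 57.3 CPM. Il11 was the 1 of 4 measured genes that was 2-fold higher there, at 6.03 CPM in AptCD4-LNT and 2.24 CPM in Untreated. In macrophage-like cells 1 of 2 was lower, Csf1, at 10.49 CPM in AptCD4-LNT and 21.5 CPM in Untreated, and in fibroblast-like cells none of 5 passed 2-fold. Of the 12 BMP and Wnt genes, 9 were measured in each class. None passed 2-fold in epithelial-like cells, where Smad7 stood at 260 CPM in AptCD4-LNT and 167 CPM in Untreated and Bmp1 at 227 and 170 CPM. In macrophage-like cells 1 was higher, Bmp2, at 32.7 CPM in AptCD4-LNT and 5.48 CPM in Untreated, and 1 was lower, Id1, at 14.1 and 32.1 CPM. In fibroblast-like cells 1 was higher, again Bmp2, at 10.1 CPM in AptCD4-LNT and 2.90 CPM in Untreated, there named after its values were seen.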

How the data were processed

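The 2 deposited matrices hold counts, whole-number UMI counts per gene and barcode that the authors made with Cell Ranger 7.2.0, per the file headers, on GRCm39, per the submitters' processing notes. Annotation release and counting options are not given in the sources used here. Barcodes needed 200 detected genes and no more than 20% mitochondrial UMIs. Doublets were scored by the share of simulated pairs among a cell's nearest neighbours, whose number grew with the number of cells. The score served to remove the share of barcodes expected from their number, 7.14% of AptCD4-LNT and 16.0% of Untreated.

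Counts were scaled to 10000 per cell and logged. From these, 2000 variable genes without the 6 genes, Bglap3 and mitochondrial genes gave 30 components. A graph of 15 nearest neighbours gave 26 Leiden clusters at resolution 1. The best mean marker score named a cluster if it reached 1 (log2) with at least 3 markers at 20 CPM. Clusters led by muscle genes or by another class's markers stayed unnamed, as did shallow ones with no marker of their own in the lead. Haemoglobin genes were left out of that check. This naming rule was settled after the clusters had been seen, and unnamed clusters 3, 18 and 20 hold 399, 18 and 40 AptCD4-LNT and 1704, 220 and 181 Untreated cells.

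Levels are UMIs per 1000000 summed over a class. Log2 ratios divide AptCD4-LNT by Untreated, with exact 95% binomial intervals, levels have exact Poisson and shares exact binomial intervals, and 3 counts are the floor for a gene at 0. Classes with 50 or more cells in each library were compared. Pericyte-like, endothelial-like and osteoclast-like cells and unnamed clusters 18 and 20 are described below that. For shares, cells were thinned to 2000 UMIs, and shallower ones, not used, numbered 133 and 733 epithelial-like and 181 and 580 macrophage-like cells of AptCD4-LNT and Untreated. Text names list genes by UMI total, up to 4 a list, plus those unseen, and 1 of the similar genes is not reported here. The 6 genes, the marker lists and the gene lists were all chosen with earlier results of these data known. Alternatives were other doublet, mitochondrial and depth limits, centring, equal weights of cells, the pooled cluster make-up in both libraries, other resolutions, classes from single cells, thinning depths, list limits and another pseudocount. The calculation was tested on simulated data. Software was Python 3.11.15, numpy 2.4.6, scipy 1.17.1, pandas 2.3.3, scikit-learn 1.9.0 and igraph 0.11.9.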

Additional observations from a re-analysis of the deposited data

Results flagged for a closer look

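Mgp differed in direction between cell classes. Its log2 ratio of AptCD4-LNT over Untreated was 0.029 in epithelial-like cells, -1.24 in fibroblast-like cells and -0.85 in neutrophil-like cells, each with a counting interval that excludes 0. The difference between classes was not tested, since each condition is 1 library. The epithelial-like value changes sign under several settings, and the neutrophil-like level, 21.4 CPM in AptCD4-LNT and 38.7 CPM in Untreated, is that of a class that should lack the gene.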

How the results depend on the processing

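No paired analysis was possible because each condition is 1 pooled library. Of 108 ratios recomputed under other settings, 61 stayed within the interval of the main value, 38 moved outside it and 9 values whose interval excluded 0 changed sign. Mgp in macrophage-like cells, -0.013 with an interval that includes 0, took either sign. Sign changes concern values near 0. Spp1 in epithelial-like cells, -0.08, became 0.0039 with cells weighted equally, 0.33 in cells with no UMI of the other classes' markers (90 AptCD4-LNT and 2222 Untreated cells) and 0.048 without cluster 0, and was -0.083 with no doublet removal, -0.069 at 0.5 of the expected doublets, -0.13 centred on the median gene and -0.019 with shared cluster weights. Dmp1 became -0.19 in such cells and -0.14 without cluster 5. Mgp there became -0.024 centred, -0.033 in such cells, -0.25 with shared cluster weights and -0.57 without cluster 5.

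Spp1 in macrophage-like cells, -1.70, was -1.39 with no doublet removal, -1.61 at 0.5 of the expected doublets, -1.91 centred, -1.67 with cells weighted equally, -1.73 at resolution 0.5, -1.57 at resolution 2, -1.80 in cells with no UMI of the other classes' markers, -1.25 with shared cluster weights and -1.46 in cluster 15 alone. Spp1 in fibroblast-like cells, -1.89, was -1.94 with no doublet removal, -1.93 at 0.5 of them, -2.07 with cells weighted equally, -1.84 with classes from single cells, -1.01 with shared cluster weights, -0.41 in cluster 12 and -1.06 in cluster 17. Ibsp in epithelial-like cells, -1.03, was -0.98 at 0.5 of the expected doublets, -1.09 centred, -2.27 in cells with no UMI of the other classes' markers, -1.25 with shared cluster weights and -0.66 without cluster 1. Bglap and Bglap2 together, -8.69, were -7.09 with shared cluster weights and kept within the interval under the other 10 settings that gave a value. The -7.09 leans on cluster 6, where the AptCD4-LNT level, 5.84 CPM (0.148 to 32.6), is 1 UMI in 29 cells. Cells with no UMI of the other classes' markers gave no value, since none of the AptCD4-LNT ones held an osteocalcin UMI. The single clusters and the left-out clusters were added after seeing the data.

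Of 36 shares, 35 moved outside their interval with thinning depth, as shares must, and in all 6 pairs of gene and class the order of the libraries at 1000 UMIs was that at 2000 UMIs. At 5000 UMIs Mgp in epithelial-like cells turned round, at 60.8% in AptCD4-LNT and 61.4% in Untreated. Unthinned, the order of Spp1 in fibroblast-like cells turned round, at 97.7% in AptCD4-LNT and 95.8% in Untreated. Of 54 list medians 1 moved by more than 1.5 times, osteoclast regulators in macrophage-like cells, at -1.03 with 50 or more UMIs, and the 8 most similar genes of each of 4 members shared 7 or 8 with those found at the other pseudocount. With 1 library per condition, differences between mice, tumours, dissociation and sequencing runs cannot be told apart from treatment, and rare classes rest on few cells.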

Other observations

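The osteoclast-like cluster, 17 AptCD4-LNT cells and no Untreated cell, carried little of the bone matrix transcripts. Spp1 stood at 414 CPM (335 to 506) there, on 96 UMIs, below the 997 CPM of AptCD4-LNT neutrophil-like cells. Ibsp had 1 UMI, Mgp 3, and Dmp1, Bglap and Bglap2 none.

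Unnamed cluster 18 had 18 AptCD4-LNT and 220 Untreated cells. Its AptCD4-LNT cells held 42 Spp1 UMIs and none of the other 5 genes, but so few UMIs in all that a count of 0 allows up to 242 CPM, so the libraries cannot be compared there. Its Untreated cells held 63 UMIs of Bglap and Bglap2, or 210 CPM, beside 33 Ibsp UMIs (110 CPM) and Spp1 at 7694 CPM. Epithelial markers summed to 131 CPM in its AptCD4-LNT and 2213 CPM in its Untreated cells. Unnamed cluster 20, led by muscle genes, had Spp1 at 6551 CPM in AptCD4-LNT and 10481 CPM in Untreated and Mgp at 382 and 464 CPM.

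Mmp12, the macrophage elastase and a leading gene of cluster 11, was lower in AptCD4-LNT as well, though less so than osteocalcin. It stood at 42.8 CPM in AptCD4-LNT and 2084 CPM in Untreated macrophage-like cells, and at 14.1 and 782 CPM in cluster 15. The gap was smaller in the other clusters. Mmp12 stood at 251 CPM in AptCD4-LNT and 1276 CPM in Untreated in cluster 6, and at 667 and 5329 CPM in cluster 11. In cluster 16 it stood at 42.5 and 80.8 CPM. Clusters 6 and 11 rest on 29 and 26 AptCD4-LNT cells, and the part of cluster make-up in the class value was not tested.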
